A study of Mus musculus with 6 samples.

Results

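Chemokines are small secreted proteins that set up gradients for migrating cells and signal through seven-helix receptors, while atypical chemokine receptors bind the same ligands and clear them. Interleukins are secreted or cell-bound cytokines whose receptors are built from a ligand-binding chain and a shared signalling chain, such as gp130 (Il6st), the common gamma chain (Il2rg) or the IL-1 receptor accessory protein (Il1rap). In oral and skin epithelium, keratinocytes store alarmins of the IL-1 family and carry receptors for IL-1, IL-17, IL-22 and IL-36, and chemokines guide leukocytes, vessels and nerves into the tissue.

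The genes described are all rows of the table whose symbol starts with Cxcl, Ccl, Cxcr, Ccr, Ackr or Il followed by a digit, with Il1rl1 left out, and no measured value entered that rule. It gave 48 genes of the 15648 in the table. RefSeq holds 140 protein-coding mouse symbols of this form, so 92 were not analysed here, and the 48 are those high enough to be listed. By function, 20 are ligands, 20 are receptor chains that bind ligand or signal, 6 are decoys, scavengers or antagonists, and 2 were kept apart. Of these 2, Il4i1 is an amino acid oxidase induced by IL-4. Il17rd belongs to the IL-17 receptor family but is known mainly as a brake on fibroblast growth factor signalling.

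The tissue was the intermolar eminence, the raised part of the mouse tongue between the molars, taken from C57BL/6 embryos at E17.5. There were 3 wild-type libraries (WT) and 3 labelled Fst-KO, mutants of Fst, whose product follistatin traps activins and certain bone morphogenetic proteins outside the cell. The sources used here do not give how the allele was made, the sex of the embryos, whether embryos were pooled or whether each library came from its own embryo. The authors deposited 1 mean of a normalised signal per group and gene, so no standard deviation and no interval can stand beside a mean, the depth per library is unknown, and the p-values measure only the spread among these 6 libraries, which may be technical.

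Several facts of the whole table bear on every value below. Fst itself had a mean of 69.7 in the libraries labelled Fst-KO and 33.2 in WT, with an unadjusted p of 4.31e-06 and FDR 0.0158 in the authors' deposited table. This goes against the label, so the mutant group is called by its label throughout. Every direction given below rests on that label: were the groups exchanged, each ratio would be inverted and each count of higher and lower genes would change sides, and this was not tested. The median ratio of all genes, labelled Fst-KO over WT, was 1.14 (0.18 on the log2 scale), and 81.0% of genes had a ratio above 1, so a ratio near 1.1 is the middle of this table. The labels name epithelium, but the dissected tissue held more: all 10 markers of basal epithelium, all 11 of mesenchyme and all 12 of skeletal muscle were listed. The X-inactivation transcript Xist had means of 735 against 142, and the 4 Y-linked genes Ddx3y, Uty, Kdm5d and Eif2s3y had ratios from 0.548 to 0.642; the part of embryo sex in any value was not tested. In such bulk tissue, fewer cells of a type and less RNA per cell cannot be told apart.

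No chemokine, interleukin or receptor gene passed the false discovery rate (FDR) of 0.05 in the authors' deposited table, a threshold passed by 0.0959% of all genes. The lowest FDR among them was 0.293, for Il1a, in the authors' deposited table, whose p-values come from Partek's gene-specific analysis. At an unadjusted p under 0.05, 10 of the 48 were called (20.8%), against 15.6% of all genes. In the libraries labelled Fst-KO 8 of them were higher (16.7% of the 48, against 13.4% of all genes) and 2 were lower (4.17%, against 2.17%). These shares are near the background, so the counts are no result about this group of genes. The 8 higher genes were Ccl21a, Il1a, Ccr2, Il17d, Il4ra, Il13ra1, Il17ra and Il10rb, and the 2 lower ones were Il15ra and Il12a. Next to the threshold in the authors' deposited table, Il12a lay inside with a p of 0.0489, and Il1rap, Ackr3 and Cxcl14 lay just outside with 0.0541, 0.0555 and 0.0581. Of the 10 genes, 6 had a mean over both groups under 5, where the median of all genes was 16.1.

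**Figure D1:**
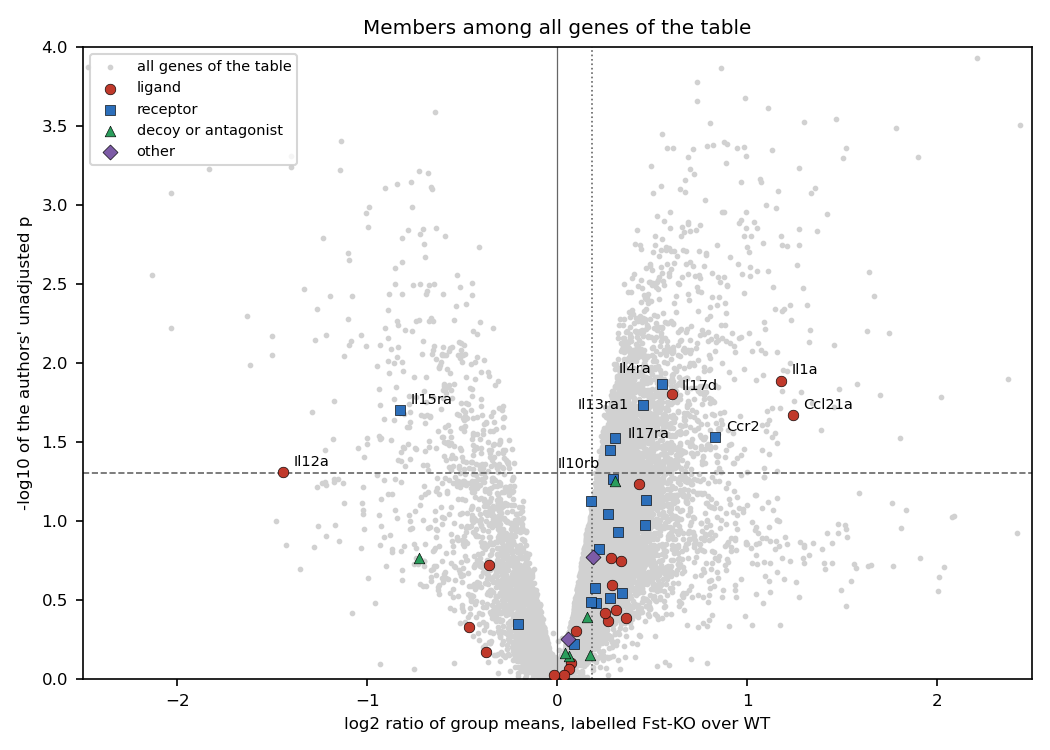
Each of the 48 genes (coloured by function) among all genes of the table (grey), with the log2 ratio of group means on the x axis and the −log10 of the authors' unadjusted p on the y axis; the dashed line is a p of 0.05, the dotted line the median log2 ratio of all genes (0.18), and 30 genes lie outside the axes. The 10 named genes lie above the dashed line, 8 to the right and 2 to the left, within the cloud of all genes.

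As a group these genes lay close to the rest of the table. Their median ratio was 1.18 (0.24 on the log2 scale), with quartiles of 1.04 and 1.25, beside a median of 1.14 and quartiles of 1.04 and 1.24 over all genes. A ratio above 1 was found for 40 of the 48 (83.3%, against 81.0% of all genes), and 28 exceeded the all-gene median. Of the 20 receptor chains, 18 had a ratio above 1 and 15 exceeded the median of all genes, with a median ratio of 1.21. Of the 20 ligands, 15 had a ratio above 1 and 11 exceeded that median, with a median ratio of 1.198 and a wider range, from 0.367 to 2.37. The 6 decoys, scavengers and antagonists had a median of 1.08, and 1 of them, Ackr3, exceeded the all-gene median. The difference between these kinds of gene was not tested.

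**Figure D2:**
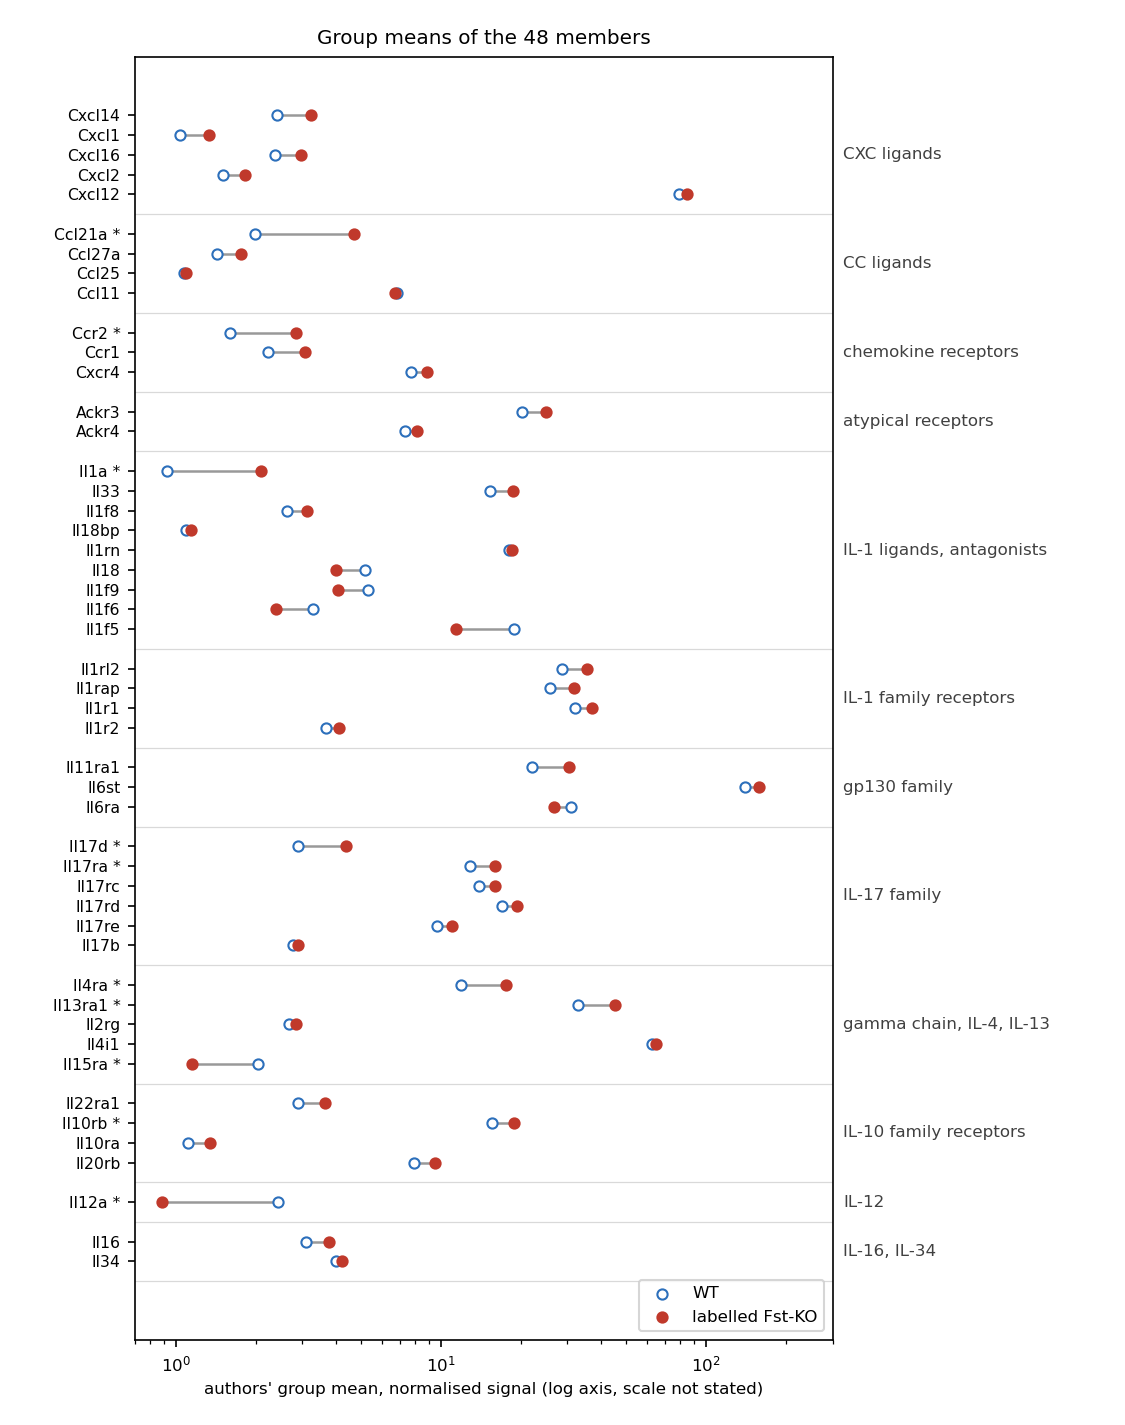
The authors' group means of all 48 genes on a log axis (normalised signal, scale not stated), WT as open circles and the libraries labelled Fst-KO as filled circles, ordered by role; an asterisk marks an unadjusted p under 0.05 in the authors' deposited table. Most receptor genes are a little to the right of WT in the libraries labelled Fst-KO, while Il1f5, Il1f6, Il1f9, Il18, Il6ra, Il15ra and Il12a lie to its left.

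Promoters were read for the genes whose shared regulation is well known or whose values stand out: the neighbouring neutrophil attractants Cxcl1 and Cxcl2, Il1a, which had the lowest p of the group, and Il4ra and Il13ra1, whose products pair in a receptor. The RefSeq windows (GRCm38.p6, the assembly that mm10 names) span 250 bases before and 50 after each start and were found for 40 of the 48 genes, 53 windows in all. Capitals mark letters that match an NF-kappaB motif (GGG, any pair of bases, then TTTCC), an AP-1 motif (TGANTCA) or a STAT motif (TTC and GAA with any 4 bases between), on either strand. Cxcl1 lies at chr5:90890995-90891294 and Cxcl2 at chr5:90903649-90903948, both on the plus strand, Il1a at chr2:129309923-129310222 on the minus strand, Il4ra at chr7:125552021-125552320 and Il13ra1 at chrX:36111858-36112157 on the plus strand.
Cxcl1: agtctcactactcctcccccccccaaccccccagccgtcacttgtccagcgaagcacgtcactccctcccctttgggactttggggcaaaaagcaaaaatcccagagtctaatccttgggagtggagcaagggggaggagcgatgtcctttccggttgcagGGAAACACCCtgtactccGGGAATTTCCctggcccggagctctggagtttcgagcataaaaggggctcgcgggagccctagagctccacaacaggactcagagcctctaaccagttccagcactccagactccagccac
Cxcl2: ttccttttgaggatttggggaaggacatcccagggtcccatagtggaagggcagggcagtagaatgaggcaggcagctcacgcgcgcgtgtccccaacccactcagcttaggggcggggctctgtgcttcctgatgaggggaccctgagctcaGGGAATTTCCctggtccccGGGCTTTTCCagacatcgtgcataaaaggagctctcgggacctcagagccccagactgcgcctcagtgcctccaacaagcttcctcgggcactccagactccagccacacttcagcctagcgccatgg
Il1a: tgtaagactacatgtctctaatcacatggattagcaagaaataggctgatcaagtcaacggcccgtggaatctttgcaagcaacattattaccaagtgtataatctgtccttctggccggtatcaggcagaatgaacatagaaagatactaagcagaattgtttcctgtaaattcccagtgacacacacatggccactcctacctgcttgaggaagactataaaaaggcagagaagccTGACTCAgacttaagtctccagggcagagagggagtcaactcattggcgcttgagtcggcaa
Il4ra: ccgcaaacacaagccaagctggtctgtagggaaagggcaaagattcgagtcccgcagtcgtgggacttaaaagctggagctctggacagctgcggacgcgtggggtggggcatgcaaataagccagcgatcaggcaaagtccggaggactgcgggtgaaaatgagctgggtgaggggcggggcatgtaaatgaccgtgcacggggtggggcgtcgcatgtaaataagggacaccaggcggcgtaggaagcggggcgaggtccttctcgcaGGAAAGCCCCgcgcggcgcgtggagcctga
Il13ra1: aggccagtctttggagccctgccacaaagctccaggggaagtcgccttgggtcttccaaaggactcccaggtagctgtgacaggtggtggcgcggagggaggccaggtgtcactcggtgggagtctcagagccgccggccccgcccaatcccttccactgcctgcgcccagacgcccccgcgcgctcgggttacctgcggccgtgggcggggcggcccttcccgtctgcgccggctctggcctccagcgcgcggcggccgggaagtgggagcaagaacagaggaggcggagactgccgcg

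The windows of Cxcl1 and Cxcl2 each held a pair of NF-kappaB matches close together, that of Il4ra held 1 near the start site, that of Il1a held an AP-1 match, and that of Il13ra1 held none of these letters. Over all 53 windows, the NF-kappaB motif was found in 7 (13.2%), against 1.63% of the 32851 windows of all genes, and these belonged to Cxcl1, Cxcl2, Il16, Il17rc, Il1rn and Il4ra. The AP-1 motif was also found in 7 windows (13.2%, against 7.81%), and so was the STAT motif (13.2%, against 6.95%), the latter in Il12a, Il18, Il1f9, Il1rn and Il33. The SMAD palindrome GTCTAGAC was in 0 of the 53 windows and in 0.213% of all, and the shorter SMAD element CAGACA was in 14 (26.4%, against 21.04%). Some genes have several overlapping windows. A match describes letters and not binding. The genes with an NF-kappaB match had ratios from 1.03 (Il1rn) to 1.47 (Il4ra), a range that includes the median of all genes.

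Among chemokine ligands, all 5 of the CXC class had a ratio above 1, as had 81.0% of all genes, and none had an unadjusted p under 0.05. Cxcl12, which signals through Cxcr4 and guides stem cells, vessels and nerves, had a mean of 85.0 in the libraries labelled Fst-KO and 79.3 in WT, a ratio of 1.07, which is below the median of all genes. Cxcl14, a chemokine made steadily by epithelium, had means of 3.22 and 2.40 and the highest ratio of the class, 1.35. Cxcl16, a membrane-bound chemokine, had a ratio of 1.26. The neutrophil attractants Cxcl1 and Cxcl2, whose promoters are shown above and whose genes lie side by side on chromosome 5, had low means of 1.33 against 1.03 and of 1.81 against 1.51.

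Ccl21a, which draws Ccr7-bearing cells towards lymphatic vessels, had the highest ratio of all 48 genes. Its means were 4.68 in the libraries labelled Fst-KO and 1.98 in WT, a ratio of 2.37 with an unadjusted p of 0.0214 and FDR 0.301 in the authors' deposited table. Its sequence is shared with near-identical copies: 71.6% of the 50-base windows of its annotated transcripts also occur in other genes, among them Ccl21b, so the split of its reads among the copies is uncertain. The endothelial markers, which include lymphatic ones, stand beside it with a median ratio of 1.08 over all 14 listed and a summed mean of 376 against 356. Prox1 and Pdpn were the 2 of these with an unadjusted p under 0.05, with ratios of 1.296 and 1.37. By the same p, 13.4% of all genes were higher. Lyve1 had a ratio of 1.19. The cells that gave these values are not known, and the part of lymphatic vessels in the value of Ccl21a was not tested.

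The other CC ligands lay lower. Ccl27a, the skin chemokine of keratinocytes, had means of 1.76 and 1.42, and it too shares 45.0% of its windows with other genes. Ccl25, a ligand of Ccr9 best known from thymus and gut, had 1.09 and 1.07, and Ccl11, eotaxin, had 6.70 and 6.80, a ratio of 0.986. Neither Ccl25 nor Ccl11 had an unadjusted p under 0.9 in the authors' deposited table, where their values were 0.944 and 0.942.

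The 3 signalling chemokine receptors had a median ratio of 1.38, the highest of the roles with more than a pair of genes. This rank depended on their low means. With a pseudocount of 1 the median was 1.26, still the highest of these roles. With a pseudocount of 10 it was 1.07, below the IL-1 family receptors at 1.14 and the gp130 family at 1.12. Ccr2, which brings monocytes into tissue, had means of 2.84 in the libraries labelled Fst-KO and 1.59 in WT, a ratio of 1.78 with an unadjusted p of 0.0294 and FDR 0.310 in the authors' deposited table. Its neighbour Ccr1, also a receptor of myeloid cells, had 3.06 and 2.22, a ratio of 1.38. Cxcr4, the receptor for Cxcl12, had 8.86 and 7.73, a ratio of 1.15 beside the 1.07 of its ligand. Markers of leukocytes were also on the higher side beside Ccr2 and Ccr1: the 5 listed pan-leukocyte genes had ratios from 1.36 to 1.66 and a summed mean of 24.4 against 16.3, with Ptprc (CD45) at 1.59, and 4 of them had an unadjusted p under 0.05. All 12 listed macrophage markers had a ratio above 1, as had 81.0% of all genes, with a median of 1.28 and a sum of 104 against 78.8. Itgam and C1qa led with 1.47 each. Only 2 of the 12, C1qa and Csf1r, were higher at an unadjusted p under 0.05, as were 13.4% of all genes. Itgam had an unadjusted p of 0.0921 in the authors' deposited table. The part of leukocytes, macrophages among them, in the receptor values was not tested.

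The atypical receptors lay on either side of the median of all genes. Ackr3, which removes Cxcl12, had means of 24.98 and 20.2 and a ratio of 1.23, and Ackr4, which removes Ccl21 and Ccl25, had 8.13 and 7.31 and a ratio of 1.11. Thus the 3 genes of the Cxcl12 axis, ligand, receptor and scavenger, had ratios of 1.07, 1.15 and 1.23, each without an unadjusted p under 0.05.

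The IL-1 family ligands, with their antagonists and binding protein, were divided, with 5 of 9 above 1, 4 below and a median ratio of 1.03, which lies under the median of all genes. Il1a, an alarmin stored by keratinocytes, had means of 2.10 in the libraries labelled Fst-KO and 0.926 in WT, a ratio of 2.26 with an unadjusted p of 0.0129 in the authors' deposited table. Il33, an alarmin of epithelial and vessel nuclei, had 18.6 and 15.2, a ratio of 1.22. The receptor antagonist Il1rn had 18.6 and 18.0, a ratio of 1.03. The binding protein that neutralises IL-18, Il18bp, had 1.13 and 1.09, while Il18 itself had 4.02 and 5.16, a ratio of 0.780.

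The IL-36 genes, epithelial members of the IL-1 family, were mostly on the lower side without passing a test. Il1f5, which encodes the IL-36 receptor antagonist, had means of 11.4 in the libraries labelled Fst-KO and 18.8 in WT, a ratio of 0.605 with an unadjusted p of 0.171 in the authors' deposited table. Il1f6 and Il1f9, for the agonists IL-36 alpha and gamma, had ratios of 0.725 and 0.771, with unadjusted p-values of 0.465 and 0.670 in the authors' deposited table. Il1f8, for IL-36 beta, was on the other side with 3.12 against 2.62, a ratio of 1.19. These 4 genes and Il1rn form a cluster on chromosome 2 from 24153161 to 24351494 (mm10), while Il1a lies elsewhere on that chromosome. Beside them, differentiating epithelium markers were mostly lower, with a median ratio of 0.429 over all 13 listed genes. Of these, 6 were lower at an unadjusted p under 0.05, as were 2.17% of all genes. They were led by Krt76 at 0.228, Hrnr at 0.244 and Tchh at 0.323. The summed mean of all 13 was 6687 against 5625, and Krt4 and Krt13, with ratios of 1.80 and 1.32, were the 2 above 1. Basal epithelium markers had a median of 1.32 and a sum of 5820 against 4110. The part of differentiating cells in the IL-36 values was not tested.

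All 4 receptors of the IL-1 family had a ratio above 1, as had 81.0% of all genes, within a narrow range. Il1rl2, the receptor for IL-36, had means of 35.6 and 28.5 and a ratio of 1.25, so receptor and most of its ligands lay on opposite sides of 1. Il1rap, the accessory chain shared by these receptors, had 31.7 and 25.8, a ratio of 1.23. Il1r1, the signalling receptor for IL-1, had 37.3 and 32.0, a ratio of 1.16, and the decoy Il1r2 had 4.13 and 3.67, a ratio of 1.13. Il1r2, Il1r1 and Il1rl2 are neighbours on chromosome 1.

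In the gp130 family 2 of the 3 genes had a ratio above 1. Il6st, for gp130 itself, had means of 158 in the libraries labelled Fst-KO and 140 in WT, a ratio of 1.13, just below the median of all genes. Il11ra1, which binds IL-11 and is needed for normal skull sutures and teeth, had 30.4 and 21.98, a ratio of 1.38 with an unadjusted p of 0.0734 in the authors' deposited table, but shares 46.3% of its windows with copies such as Il11ra2. Il6ra, the IL-6 binding chain, had 26.7 and 30.9, a ratio of 0.865, and with Il15ra was 1 of only 2 receptors of the 20 with a ratio below 1. Of related genes named otherwise, the cytokine gene Clcf1 had a ratio of 1.31 with an unadjusted p of 0.0201 in the authors' deposited table, while the receptor genes Lifr, Osmr and Cntfr had ratios of 1.05, 1.16 and 0.929.

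All 6 IL-17 family genes had a ratio above 1, as had 81.0% of all genes. Their median of 1.15 lay near the 1.14 of all genes, and 4 of the 6 exceeded the latter. Il17d, a cytokine of non-immune tissues, had means of 4.40 in the libraries labelled Fst-KO and 2.90 in WT, a ratio of 1.52 with an unadjusted p of 0.0158 and FDR 0.297 in the authors' deposited table. Il17b had 2.89 and 2.77, a ratio of 1.04. Il17ra, the chain common to most IL-17 receptors, had 15.9 and 12.9, a ratio of 1.24 with an unadjusted p of 0.0299 in the authors' deposited table. Its partner chains Il17rc and Il17re, which lie next to each other on chromosome 6, had ratios of 1.15 and 1.13, and Il17rd had 1.14. The IL-17 and IL-1 signal transducers outside the rule had a median ratio of 1.098 over 17 listed genes of 20. Of these, Nfkbiz alone had an unadjusted p under 0.05, by which 13.4% of all genes were higher. Nfkbiz had means of 18.6 against 13.0 and a ratio of 1.43.

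The pair of chains that make the type II receptor for IL-4 and IL-13 were both on the higher side. Il4ra had means of 17.52 in the libraries labelled Fst-KO and 11.9 in WT, a ratio of 1.47 with an unadjusted p of 0.0135 and FDR 0.293 in the authors' deposited table. Il13ra1 had 45.2 and 33.0, a ratio of 1.37 with an unadjusted p of 0.0185 and FDR 0.301 in the authors' deposited table. Relative to the median of all genes, these ratios were 1.29 and 1.21. Il13ra1 lies on the X chromosome, and the part of the Xist difference given above in its value was not tested. The other X-linked gene, Il2rg, had 2.83 and 2.66, a ratio of 1.06, and shares 27.5% of its windows with an overlapping gene model. Fibroblasts carry the type II receptor, and mesenchyme markers had a median ratio of 1.30, all 11 above 1, and a summed mean of 5130 against 3824, led by Fbln1 at 1.83; their part was not tested.

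Il15ra, which presents IL-15 to neighbouring cells, was lower, with means of 1.15 in the libraries labelled Fst-KO and 2.03 in WT, a ratio of 0.563 with an unadjusted p of 0.0198 in the authors' deposited table. Il12a, for the p35 chain of IL-12, had the lowest ratio of the 48, 0.367, from means of 0.888 and 2.42. The authors' deposited table gives it an FDR of 0.319. Both genes had low means, and the table lists no gene with a geometric mean of the groups under 1.01. Skeletal muscle, which expresses IL-15 and its receptor, had markers with a median ratio of 0.691 and a summed mean of 6833 against 9629. Differentiating epithelium markers had a median ratio of 0.429, as given above. The part of either tissue in the values of Il15ra and Il12a was not tested. Il4i1 had 65.0 and 62.6, a ratio of 1.04, and its exons overlap those of Nup62 on the same strand and of Tbc1d17 and Atf5 on the other.

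The 4 receptors of the IL-10 family lay within a narrow range above the median of all genes, from 1.204 to 1.27. Il10rb, the chain shared by the receptors for IL-10, IL-22 and interferon lambda, had means of 18.8 in the libraries labelled Fst-KO and 15.5 in WT, a ratio of 1.21 with an unadjusted p of 0.0354 in the authors' deposited table. Of its windows 13.9% are shared, mostly with an overlapping gene model. The epithelial chains Il22ra1 and Il20rb had 3.65 against 2.88 and 9.48 against 7.87. Il10ra, the leukocyte chain, had 1.35 against 1.11. The remaining interleukins were Il16, which attracts CD4 cells, at 3.76 and 3.10, and Il34, a ligand of the macrophage receptor Csf1r, at 4.22 and 4.02. The exons of Il16 share 1202 bases with Stard5 on the opposite strand, whose ratio was 1.38. Exons of Il4ra (571 bases), Il1a (222), Il1rap (552), Cxcl16 (552) and Ackr4 (479), among others, also overlap genes on the opposite strand. The sources used here do not say whether strand was kept. Csf1r had a ratio of 1.42, beside 1.05 for its ligand Il34.

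**Figure D3:**
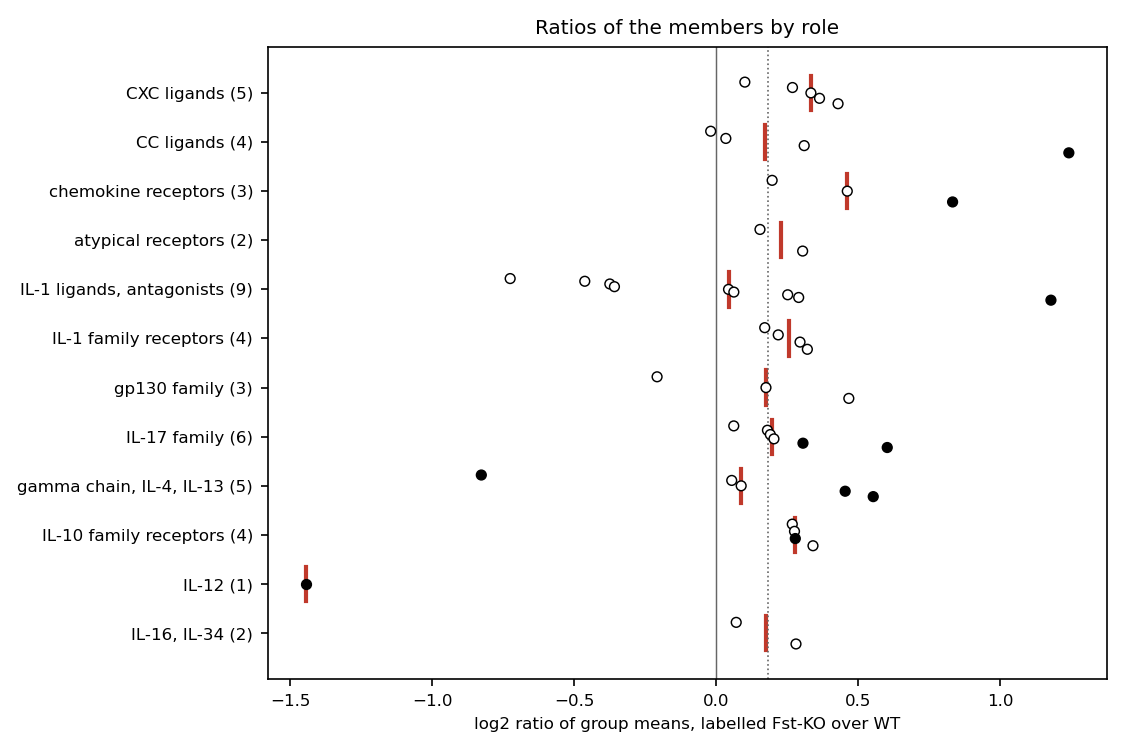
Log2 ratios of group means (labelled Fst-KO over WT) of the 48 genes by role, with the number of genes in brackets; filled points have an unadjusted p under 0.05, red bars are medians, the solid line is 0 and the dotted line the median of all genes (0.18). IL-10 family and IL-1 family receptors sit close together to the right of 0, while IL-1 family ligands spread from −0.73 to 1.18.

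The genes that carry these signals inside the cell lay near the middle of the table. JAK, STAT and SOCS genes had a median ratio of 1.14 over 24 listed of 25, and by an unadjusted p under 0.05 there were 3 higher (Socs2 at 1.37, Stat2 at 1.29 and Socs4 at 1.16) and 0 lower. NF-kappaB genes had a median of 1.17 over all 14, with 3 higher (Nfkbia at 1.38, Chuk at 1.23 and Ikbkb at 1.197) and 0 lower. Signalling genes downstream of chemokine receptors had a median of 1.16 over 19 of 23 symbols, with 5 higher and 1 lower. Those with the largest differences were Rac2, a GTPase of blood cells, at 1.80, the kinase gene Ptk2b at 1.65, and Adrbk2, a kinase that switches off G protein-coupled receptors, at 0.635, from 23.8 against 37.55. Adrbk2 had an unadjusted p of 0.00539 and FDR 0.279 in the authors' deposited table. Of the 23 symbols, Grk2 and Grk3 were not listed but are other names of Adrbk1 and Adrbk2, which were.

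Chemokine-related genes outside the rule were listed for 15 of 20, with a median ratio of 1.25, and by the same p there were 4 higher and 0 lower. The largest ratio was that of Ppbp, a platelet chemokine, with means of 4.86 and 1.53 and a ratio of 3.18; the other platelet chemokine, Pf4, had 6.37 and 5.38. Blood cell genes were listed for 5 of 8, all with a ratio above 1, a median ratio of 1.76 and a summed mean of 670 against 368. Of these 5, 3 were higher at an unadjusted p under 0.05 (Hbb-bt, Hba-a1 and Hbb-bs) and 0 passed the FDR in the authors' deposited table, and their part in the value of Ppbp was not tested. Cd74, a receptor for Mif and the class II invariant chain, had a ratio of 2.26, and Mif had 1.39. Cx3cl1 and its receptor Cx3cr1, found on macrophages, had 1.13 and 1.32. Colony-stimulating factor genes were listed for 8 of 14, with Csf2rb higher at 1.72, Csf1r higher at 1.42 and Kit lower at 0.784 at an unadjusted p under 0.05.

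Other immune cells were covered unevenly. Mast cell markers had a median ratio of 2.68 over 8 listed of 10 and a summed mean of 60.2 against 42.2, with Tpsab1 at 5.41 and Cma1 at 3.13, and with Kit on the other side at 0.784. At an unadjusted p under 0.05, 6 of the 8 were higher and 1, Kit, was lower, against 13.4% and 2.17% of all genes. Cma1 and Tpsb2 passed the FDR of 0.05 in the authors' deposited table, at 0.0386 and 0.0436, a threshold passed by 0.0959% of all genes. Markers of T, NK and innate lymphoid cells were listed for 2 of 15. These were Thy1, which fibroblasts and nerves also express, with a ratio of 1.60, and Trdc, a T cell receptor gene. Trdc had low means of 1.22 in the libraries labelled Fst-KO and 1.27 in WT, a ratio of 0.960. Markers of B cells were listed for 0 of 6, so most of the chosen lymphocyte markers were not analysed here. Neutrophil and monocyte markers were listed for 3 of 11, with Ltf at 2.54, Plac8 at 2.11 and Lcn2 at 1.13, and a median of 2.11. The other 8, among them S100a8, S100a9 and Ly6g, were not listed. Dendritic cell markers were listed for 4 of 9, with a median ratio of 1.67 and a summed mean of 19.3 against 16.6, and ranged from 0.800 for Zbtb46 through 1.21 for H2-Ab1 and 2.14 for H2-Aa to 2.26 for Cd74. Nerve and Schwann cell markers had a median of 1.42 and immediate early genes of 1.18. Salivary and ductal markers, listed for 7 of 13, had a median of 2.15 but were divided. The 4 above 1 were the keratin genes Krt7, Krt8, Krt18 and Krt19, at 2.49, 2.46, 2.20 and 2.15. The 3 below 1 were Muc19, Smgc and Dcpp1, at 0.379, 0.459 and 0.532. None of these lists was tested as a list, and some share genes, such as Csf1r, Kit, Cd74 and Lyve1.

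**Figure D4:**
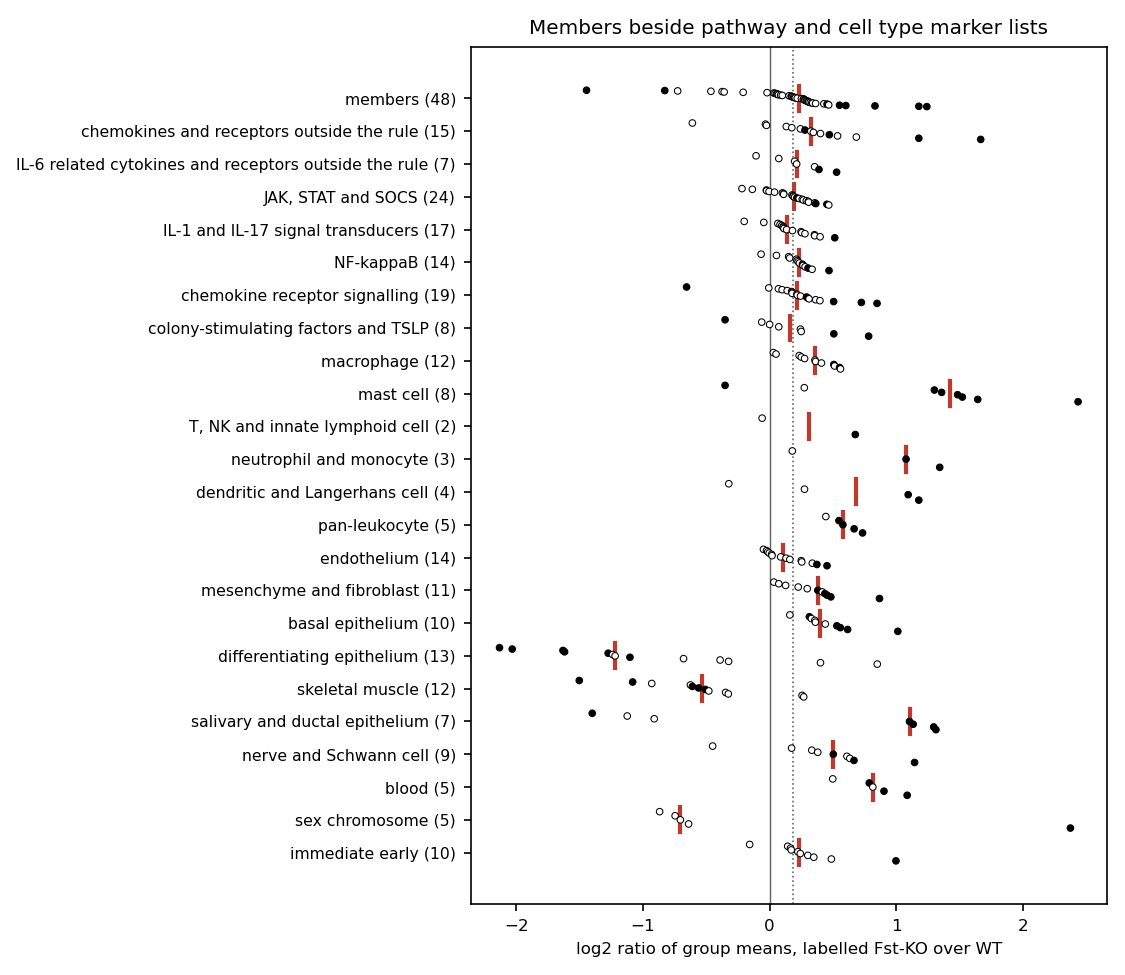
Log2 ratios of group means (labelled Fst-KO over WT) of the 48 genes (top row) beside those of pathway and cell marker genes, with the number listed in brackets; filled points have an unadjusted p under 0.05, red bars are medians, and the dotted line is the median of all genes (0.18). The 48 genes centre at 0.24, while differentiating epithelium and skeletal muscle lie to the left and mast cell, blood and leukocyte markers to the right.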

How the data were processed

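RNA from 3 WT and 3 Fst-KO libraries was used. BWA 0.7.12, Partek and mouse build mm10 are named in the submitters' processing notes. The deposited table, per the file headers, holds least-squares group means of a normalised signal, the ratio of mutant to WT, p-values with their FDR, and a signed fold change kept here as a score and not used. The sources used here do not give the authors' annotation, normalisation or read counting. The header "mutant" was taken as Fst-KO. Ratios were recomputed from the deposited means and matched the authors' ratio in each of the 15648 genes (relative tolerance 1e-06). The FDR is the authors' step-up adjustment over all these genes, and it was recomputed with the same result.

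Genes and lists were chosen with earlier results of these data known. Named by rule were the genes with an unadjusted p under 0.05, the 10 with the highest means, the 5 highest and 5 lowest ratios among means of at least 5, and the highest mean of a role otherwise unnamed (23 genes). The other 25 were named to account for all. From each further list up to 3 genes with such a p and the largest ratio were named, and any other gene was chosen after its values were seen. One gene that this rule names is not reported here. Gene positions come from GENCODE M21 (GRCm38), which held all 48 symbols, and promoters from RefSeq. Promoter windows were not used for Ccl11, Cxcl16, Il10ra, Il10rb, Il17b, Il17ra, Il1f6 and Il34. Shared sequence was counted as 50-base windows of annotated transcripts found in another gene. Alternatives were another p threshold, pseudocounts of 1 and 10, rescaling, filters on low means and other memberships. Python 3.11.15, pandas 2.3.3 and matplotlib 3.10.9 were used, and the adjustment was tested on simulated data.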

Additional observations from a re-analysis of the deposited data

How the results depend on the processing

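No library values were used, so leaving out a replicate was not run. No paired analysis was possible because the table holds group means and no value per library. The count of 8 higher and 2 lower genes at an unadjusted p under 0.05 became 0 and 0 at a p under 0.01, and 2 and 0 among genes whose mean reached the all-gene median. It was 8 and 2 with directions counted from the all-gene median or without Il17rd and Il4i1, and 6 and 2 without the 5 genes that share at least 10% of their windows (chosen after seeing the data). The count past the FDR was 0 in each alternative run, an FDR of 0.1 and a new adjustment over abundant genes among them, beside the 10 genes at an unadjusted p under 0.05. The median ratio of 1.18 was 1.14 with a pseudocount of 1 (all genes 1.12), 1.06 with a pseudocount of 10 (all genes 1.07), 1.04 when divided by the all-gene median, 1.11 with both groups scaled to the same sum (all genes 1.07), 1.19 for genes whose mean reached that median (all genes 1.12), 1.15 for those with a mean of at least 5 (all genes 1.13), 1.197 without Il17rd and Il4i1, and 1.15 without genes of shared sequence. It thus lay above that of all genes except with a pseudocount of 10. With 25 of the 48 means under 5 and the depth unknown, no limit of detection can be given.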
